A study of Rattus norvegicus with 24 samples.

Results

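The 6 NMDA receptor subunit genes Grin1, Grin2a, Grin2b, Grin2c, Grin2d and Grin3a were followed in the nucleus accumbens (NAc) of male rats exposed to lipopolysaccharide (LPS), heroin or both. They were selected by gene symbol, with earlier results of these data known, from the 32545 genes of the deposited FPKM table. FPKM is the number of sequenced fragments on a gene scaled by the length of its gene model and by the size of the library. The seventh gene of the family, Grin3b, lay outside the selection and is given only where a result turned on it.

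All animals were adult male Sprague Dawley rats, 8 weeks old on arrival, and each group held 4 libraries from separate rats, 24 libraries in all. In the injection experiment rats first received 5 intraperitoneal injections of saline or of 250 µg/kg LPS, the bacterial cell wall component that triggers innate immunity. Saline or heroin followed daily for 5 days, with heroin rising from 1 to 5 mg/kg, and tissue was recorded as taken 1 h after the last injection. The methods instead place killing within 1 h of the end of a locomotor session that followed that injection. By first and second treatment, the controls are called Saline-Saline, rats given one agent LPS-Saline or Saline-Heroin, and those given both LPS-Heroin. In the self-administration experiment catheterized rats worked for saline (Saline-SA) or for heroin at 0.075 mg/kg per infusion (Heroin-SA) for 6 h a day over 10 days, and were killed directly after the last session. The labels put a week between LPS and heroin, whereas the methods give a shorter gap, and the methods describe more sequenced rats per group than the 4 analysed here.

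NMDA receptors are glutamate-gated calcium channels that typically open when glutamate and a co-agonist, glycine or D-serine, are both bound while the membrane is depolarized. Every receptor contains the obligatory GluN1 subunit, encoded by Grin1, and its kinetics, magnesium block and partners are set by the GluN2 subunits (Grin2a to Grin2d) or the GluN3 subunits (Grin3a, Grin3b) that join it. In the NAc these receptors sit on medium spiny neurons, on interneurons and on other cells, and are known for their part in drug-induced plasticity. GluN2B and GluN2D prevail early in life, GluN2A increases with maturation, and GluN2D persists in adult interneurons.

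The upstream regions of Grin2d, the member with the largest decrease against Saline-Saline, and of Grin1, the member with the lowest spread over the libraries, are shown to set a changing and a steady member side by side. RefSeq promoters on build GRCr8 were matched for 4 of the 6 genes (Grin1, Grin2c, Grin2d and Grin3a). Grin2a and Grin2b had no entry. The 250 bases before each start site are written 5′ to 3′ with CG dinucleotides in capitals. Both genes lie on the minus strand, at chr1:105481237-105481486 for Grin2d and at chr3:28528755-28529004 for Grin1.
Grin2d: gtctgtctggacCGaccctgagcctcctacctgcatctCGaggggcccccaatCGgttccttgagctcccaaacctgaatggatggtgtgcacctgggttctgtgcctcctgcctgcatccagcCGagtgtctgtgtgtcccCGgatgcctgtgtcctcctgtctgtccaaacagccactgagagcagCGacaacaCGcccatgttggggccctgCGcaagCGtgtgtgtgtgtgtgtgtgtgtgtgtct
Grin1: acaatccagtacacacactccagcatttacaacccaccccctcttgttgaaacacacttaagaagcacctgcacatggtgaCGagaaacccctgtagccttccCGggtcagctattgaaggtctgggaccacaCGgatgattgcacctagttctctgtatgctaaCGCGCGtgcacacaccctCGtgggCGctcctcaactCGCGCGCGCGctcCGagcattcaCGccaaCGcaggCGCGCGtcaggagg
The Grin2d stretch held 9 CG dinucleotides and the Grin1 stretch 19, against a median of 5 over 33469 promoters. The half-site of the cAMP response element, TGACG, was searched on both strands and occurred in Grin1 at -172 on the plus strand of the gene and at -10 on the other strand, in none of the other 3 genes, and in 18.2% of all promoters. The GC box GGGCGG and the Egr site GCGNGGGCG occurred in none of the 4 genes, and in 30.5% and 4.29% of all promoters. These counts describe letters in a short window and no binding was measured.

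Between 12312878 and 18850240 reads fell on genes in each library, and the summed level of 11 medium spiny neuron markers was between 1258 and 3310 FPKM, with all 11 markers present. Mitochondrial genes took 6.82% to 9.10% of the reads in the injection groups and 10.0% to 15.9% in the self-administration groups. Markers of neighbouring tissue varied between rats of one group. Choroid plexus markers summed to 337 FPKM in replicate 1 of Saline-Saline but to 0.910 FPKM in the lowest library of that group. Of 9 choroid plexus markers, 8 were found in the table, and 6 of those averaged below 0.5 FPKM. No marker of any list was at 0 in all libraries.

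Grin1, on chromosome 3 (2506896 to 2534663, minus strand, rn6), was by far the most abundant subunit transcript, at 108 FPKM on average over the 24 libraries and with 6937 to 10903 reads in a library. Saline-Saline rats had 110 ± 6.47 FPKM, LPS-Saline rats 108 ± 5.74, Saline-Heroin rats 114 ± 6.09 and LPS-Heroin rats 114 ± 1.93 (mean ± SD, n = 4 each). The self-administration groups had 101 ± 2.99 FPKM in Saline-SA and 101 ± 5.05 FPKM in Heroin-SA. All neighbouring groups overlapped in the order of the levels, and the coefficient of variation over all 24 libraries was 6.46%. Grin1 shares its locus with Lrrc26 and one unnamed gene on the opposite strand, so its value is uncertain to the extent that counting ignored strand.

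Grin2c, on chromosome 10 (103798291 to 103816287, minus strand), was next at 24.7 FPKM on average and accounted for 62.6% ± 5.01 of the summed FPKM of the 4 Grin2 genes in Saline-Saline. GluN2C is best known from the cerebellum and from glia. The other members were lower by several fold, with averages of 4.72 FPKM for Grin2d (chromosome 1, 101820461 to 101856881, minus strand), 4.54 FPKM for Grin3a (chromosome 5, 64928620 to 65073012, minus strand), 4.43 FPKM for Grin2a (chromosome 10, 5930298 to 6119990, plus strand) and 3.05 FPKM for Grin2b (chromosome 4, 169560387 to 169999873, minus strand). Grin3a lies over Ppp3r2 on the same strand and is uncertain for that reason. FPKM depend on the length of the gene model (4259 bases for Grin2a and 5261 for Grin2b), so this order between genes holds only for the deposited models. At the low end, Grin2a rested on 59 to 759 reads, Grin2b on 91 to 646 and Grin2d on 215 to 606 reads per library.

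**Figure D1:**
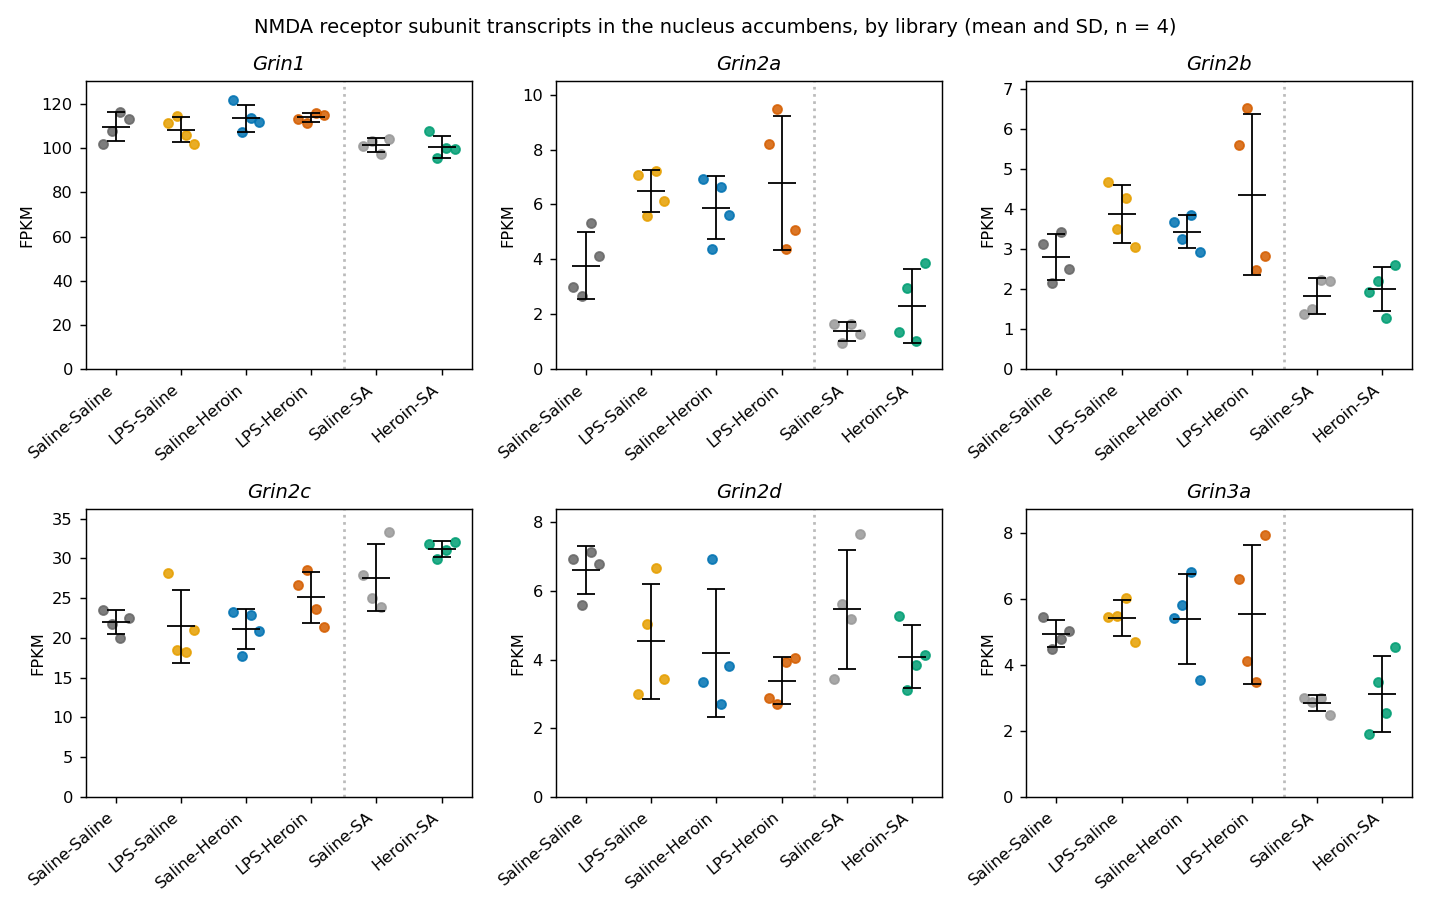
FPKM (vertical axes, from 0) of the 6 subunit genes in each of the 24 libraries, by group, with the group mean and SD as black bars and a dotted line between the injection and self-administration experiments. Grin1 stayed between 95.5 and 122 FPKM, Grin2a was higher in all 4 LPS-Saline libraries than in any Saline-Saline library, and Grin2d was lower in all 4 LPS-Heroin libraries than in any Saline-Saline library.

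Grin2a, the subunit of mature and fast receptors, was higher in each treated injection group than in Saline-Saline. The Saline-Saline rats had 2.97, 2.65, 5.33 and 4.11 FPKM (replicates 1 to 4). LPS-Saline rats had 7.06, 5.60, 7.21 and 6.12 FPKM, so every one of them lay above every Saline-Saline rat. Saline-Heroin rats had 6.91, 4.36, 6.63 and 5.61 FPKM, and LPS-Heroin rats had 8.22, 9.48, 4.37 and 5.05 FPKM. Both heroin-injected groups overlapped the upper part of Saline-Saline, and the LPS-Heroin rats were split between the 2 highest values of the series and a pair inside the control range.

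Grin2b, which encodes the slower, earlier-expressed GluN2B subunit, was at 3.13, 2.16, 3.43 and 2.50 FPKM in Saline-Saline. It was at 4.67, 3.49, 4.28 and 3.05 FPKM in LPS-Saline, and at 3.68, 3.26, 3.84 and 2.93 FPKM in Saline-Heroin. In LPS-Heroin it was at 5.60, 6.53, 2.48 and 2.84 FPKM. Its groups overlapped throughout the injection experiment, and the 2 LPS-Heroin rats with the most Grin2a also had the most Grin2b.

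Grin2d, the subunit of receptors with very slow deactivation and weak magnesium block, went the other way. Saline-Saline rats had 6.95, 5.59, 7.13 and 6.78 FPKM. LPS-Saline rats had 3.01, 5.03, 6.68 and 3.43 FPKM, and Saline-Heroin rats had 3.35, 6.93, 2.70 and 3.82 FPKM. In each of those groups, 1 rat (replicate 3 of LPS-Saline and replicate 2 of Saline-Heroin) was at the control level and the others were below it. LPS-Heroin rats had 2.89, 2.69, 3.92 and 4.06 FPKM, all below the lowest Saline-Saline rat.

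Grin3a, a subunit that lowers calcium permeability, ranged from 4.49 to 5.46 FPKM among Saline-Saline rats, with LPS-Saline from 4.70 to 6.03, Saline-Heroin from 3.55 to 6.82 and LPS-Heroin from 3.46 to 7.94. Grin2c ranged from 20.0 to 23.6 FPKM among Saline-Saline rats, with LPS-Saline from 18.3 to 28.1, Saline-Heroin from 17.7 to 23.2 and LPS-Heroin from 21.4 to 28.6. Neither separated the injection groups, and the spread of Grin3a was widest in LPS-Heroin, where its coefficient of variation was 37.9%.

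The comparison of LPS-Saline with Saline-Saline asks what a history of immune challenge leaves behind without any opioid. Differentially expressed genes (DEGs) were called with limma at the study's looser limits, which ask for p no larger than 0.05 before adjustment and for log2(FPKM + 0.1) to differ by 0.378 or more either way. By these limits 3 of the 6 members were DEGs, where 2.37% of the 15119 genes tested were. Grin2a rose by 0.82 (log2, SE 0.21, limma p = 0.00393, exact permutation p = 0.0286, the smallest that 4 against 4 rats allow). Grin2b rose by 0.46 (SE 0.19, limma p = 0.0421, exact permutation p = 0.114), and Grin2d fell by 0.60 (SE 0.23, limma p = 0.0311, exact permutation p = 0.0571). Grin1, Grin2c and Grin3a had log2 fold changes of -0.02, -0.05 and 0.13. The groups did not overlap for 1 member, Grin2a, against 4.11% of all genes tested. In bulk tissue, fewer cells of a type and less RNA per cell cannot be told apart.

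No member passed an adjusted p of 0.05 in this comparison or any other. The adjusted p-values of limma with Benjamini-Hochberg correction over all genes were 0.661 for Grin2a, 0.736 for Grin2b and 0.736 for Grin2d. No gene of the whole table passed in any comparison. Per comparison, 607 to 1725 genes had an unadjusted limma p under 0.05. Without any change, a share of 0.05 of the genes would be expected under that limit. The interaction (607 of 15113), LPS-Heroin against LPS-Saline (693 of 15069) and LPS-Heroin against Saline-Heroin (637 of 15121) lay below that share. Limma-voom on the recovered reads also left no gene past an adjusted p of 0.05. The calls of 2 members rested on single rats: Grin2b was no longer a DEG without replicate 2 or 4 of Saline-Saline or without replicate 1, 2 or 3 of LPS-Saline (log2 fold changes from 0.34 to 0.56 over all 8 omissions), nor was it one at a pseudocount of 1 (0.36), without the filter on FPKM (0.46) or with all 6 groups in one fit (0.46). Grin2d was no longer one without replicate 1, 3 or 4 of Saline-Saline or replicate 1 or 4 of LPS-Saline (-0.80 to -0.43). Grin2a remained a DEG under each of the 8 omissions (0.67 to 1.00).

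Repeated heroin injection alone was examined in Saline-Heroin rats, again against Saline-Saline. Here 2 of the 6 members were DEGs, against 3.07% of the 15143 genes tested. Grin2a rose by 0.66 (log2, SE 0.23, limma p = 0.0207, adjusted p = 0.750, exact permutation p = 0.0571). Grin2d fell by 0.73 (SE 0.25, limma p = 0.0193, adjusted p = 0.750, exact permutation p = 0.0857). Grin2b had a log2 fold change of 0.30 (SE 0.17), and Grin1, Grin2c and Grin3a had 0.05, -0.06 and 0.09. No member had groups without overlap, which 3.39% of all genes had. Leaving out replicate 1 or 2 of Saline-Saline or replicate 1 or 3 of Saline-Heroin ended the Grin2a call (0.51 to 0.84 over the 8 omissions). Leaving out replicate 1 or 3 of Saline-Heroin ended the Grin2d call, and without replicate 2 of Saline-Heroin, the rat at the control level, Grin2d was at -0.99. Fitting all 6 groups together also ended the Grin2a call.

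In LPS-Heroin, which received both treatments, Grin2d was at 0.513 times its Saline-Saline mean. The mean fell from 6.61 ± 0.696 FPKM in Saline-Saline to 3.39 ± 0.699 FPKM in LPS-Heroin (SD, n = 4 each). The log2 fold change was -0.96 (SE 0.16, limma p = 0.000200, adjusted p = 0.144, exact permutation p = 0.0286), and Grin2d stayed a DEG under each of the 8 omissions (-1.05 to -0.86, and -0.93 without replicate 1 of Saline-Saline, which had the highest choroid plexus and septum markers). Grin2a rose by 0.81 (SE 0.29, limma p = 0.0224, adjusted p = 0.344, exact permutation p = 0.0857). These 2 of the 6 members were DEGs against 5.43% of the 15134 genes tested. Grin2d alone had groups without overlap, against 6.86% of all genes.

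Grin2b had a log2 fold change of 0.52 (SE 0.32), Grin2c of 0.18 (SE 0.10), Grin1 of 0.06 and Grin3a of 0.08 between LPS-Heroin and Saline-Saline by limma. The Grin2a call was lost without replicate 1 or 2 of Saline-Saline or replicate 1 or 2 of LPS-Heroin (0.63 to 1.00 over the 8 omissions). Without replicate 3 of LPS-Heroin, Grin2b became a DEG, at 0.75. The 3 comparisons above share the Saline-Saline rats, so their directions are not independent of each other.

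Marker genes of other cells moved along in the same comparison. Of 8 tested markers of cortical glutamatergic neurons, 6 were DEGs higher in LPS-Heroin than in Saline-Saline (Slc17a7, Neurod6 and Tbr1 among them), and the list summed to 98.5 to 281 FPKM in Saline-Saline and 358 to 452 FPKM in LPS-Heroin. Of 7 septum and ventral forebrain markers, 3 were DEGs lower in LPS-Heroin (Nts, Lhx8 and Zic4), with sums of 53.1 to 132 and 29.0 to 55.6 FPKM. Of 8 tested striatal interneuron markers, only Lhx6, a transcription factor of Pvalb and Sst interneurons, was a DEG against Saline-Saline, lower in both heroin-injected groups. The interneuron list summed to 435 to 561 FPKM in Saline-Saline, 415 to 651 in Saline-Heroin and 500 to 652 in LPS-Heroin. In LPS-Saline and Saline-Heroin no cortical marker was a DEG, with sums of 120 to 391 and 162 to 439 FPKM, and of the septum markers only Nts was one, lower in Saline-Heroin. Of 8 microglia markers, Tmem119 was a DEG higher in LPS-Heroin and Cx3cr1 one lower in Saline-Heroin. Against Saline-Saline, 5.43% of all genes were called in LPS-Heroin, 3.07% in Saline-Heroin and 2.37% in LPS-Saline. The part of these markers in the subunit changes was not tested.

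Within treated rats, adding the other treatment gave no DEG among the members. Between LPS-Heroin and LPS-Saline 0 of the 6 members were DEGs, against 2.29% of genes, and none had groups without overlap, against 2.58%. The log2 fold changes were -0.0040 (SE 0.24) for Grin2a, 0.07 (SE 0.31) for Grin2b and -0.36 (SE 0.26) for Grin2d. Between LPS-Heroin and Saline-Heroin again 0 of 6 were DEGs, against 2.2% of genes, with 2.37% of genes not overlapping and none of the members. Grin2a was at 0.15 (SE 0.26), Grin2b at 0.23 (SE 0.30) and Grin2d at -0.23 (SE 0.28). Outside the selection, Grin3b was lower in LPS-Heroin (0.355 ± 0.082 FPKM) than in Saline-Heroin (0.712 ± 0.160 FPKM), by 0.83 on the log2 scale (SE 0.35, limma adjusted p = 1.00), past the DEG limits. It rested on 15 to 99 reads per library and overlaps Palm and Tmem259 on the other strand.

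The LPS by heroin interaction, which sets LPS-Heroin against the sum of the separate LPS and heroin differences, was fitted in the 16 injected rats. It made 0 of the 6 members a DEG, against 2.31% of genes. Grin2a had an interaction of -0.66 (log2, SE 0.36, limma adjusted p = 0.992). It passed the limits without replicate 3 of Saline-Saline (-0.84), replicate 2 of Saline-Heroin (-0.80) or replicate 2 of LPS-Heroin (-0.85). Grin2d had an interaction of 0.36 (SE 0.39) and Grin2b of -0.23 (SE 0.38). Grin2c, at 0.30 (SE 0.19), passed the limits only without replicate 1 of LPS-Saline (0.44).

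**Figure D2:**
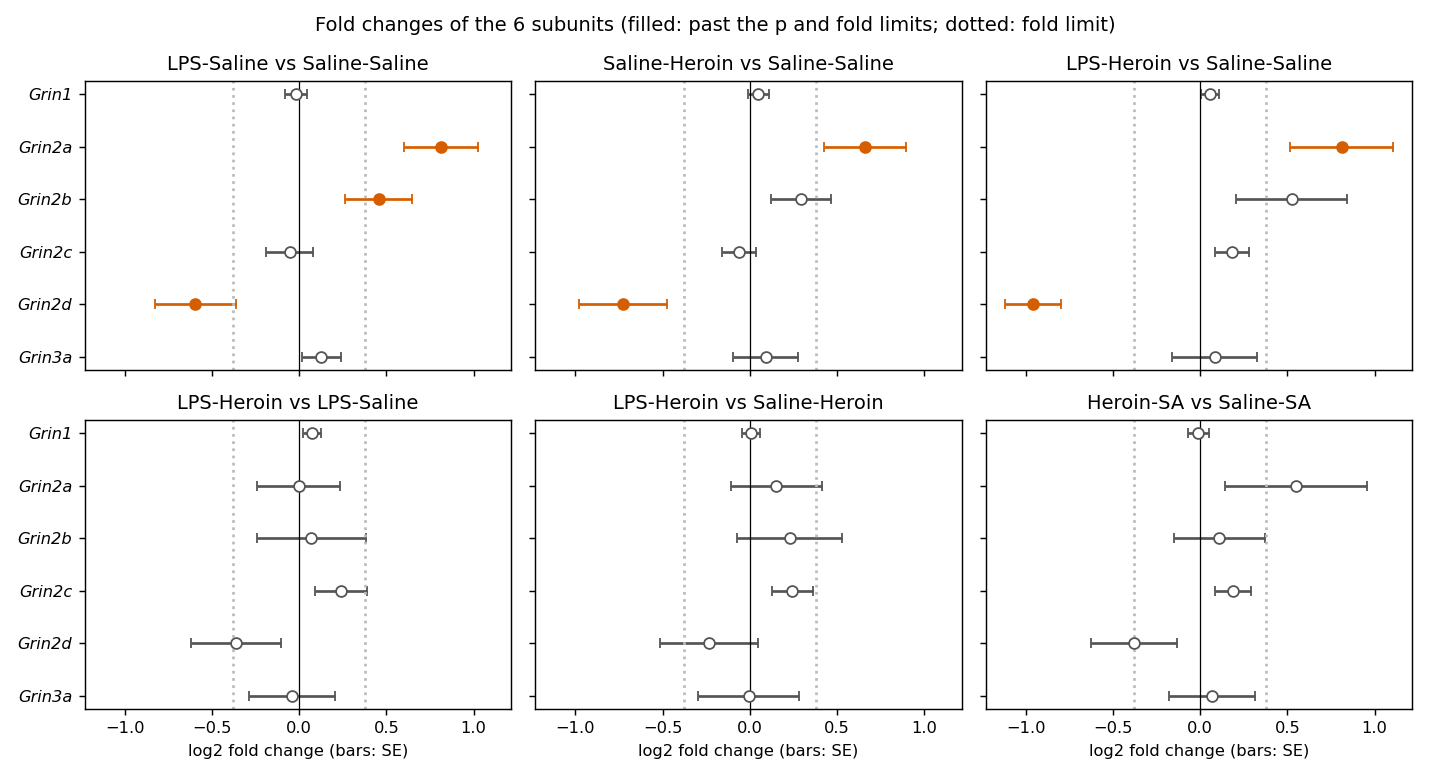
Log2 fold change (horizontal axes) of each of the 6 subunit genes in the 6 comparisons, with bars of 1 SE from limma on log2(FPKM + 0.1), filled orange where the p and fold limits were passed and with dotted lines at the fold limit of 0.378. The filled points are Grin2a and Grin2d in the 3 comparisons with Saline-Saline and Grin2b in LPS-Saline only, and the comparisons among treated rats and of the self-administration groups have none.

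Rats that took heroin themselves were compared with rats that took saline. Grin2a was at 1.63, 0.951, 1.66 and 1.26 FPKM in Saline-SA and at 1.36, 2.95, 1.03 and 3.86 FPKM in Heroin-SA. Replicates 2 and 4 of Heroin-SA lay above every Saline-SA rat and the other two lay within its range. The log2 fold change was 0.55 with a wide error (SE 0.41, exact permutation p = 0.314).

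Grin2d was at 3.43, 5.62, 5.17 and 7.66 FPKM in Saline-SA and at 5.28, 3.10, 3.84 and 4.13 FPKM in Heroin-SA, a log2 fold change of -0.38 (SE 0.25, exact permutation p = 0.257). It passed the limits without replicate 1 of Saline-SA, at -0.58. Of the 8 interneuron markers tested, Calb2 and Chat were DEGs lower in Heroin-SA. The summed FPKM of the interneuron list was higher instead, at 591 to 679 in Heroin-SA against 486 to 588 in Saline-SA. The part of interneuron markers in the Grin2d values was not tested. Grin2b (0.11, SE 0.26), Grin2c (0.19, SE 0.10), Grin3a (0.07, SE 0.25) and Grin1 (-0.01, SE 0.06) were not DEGs either. In all, 0 of the 6 members were DEGs against 5.45% of the 15024 genes tested, and none had groups without overlap, which 6.8% of genes had. The paper, by its own count test, lists Grin2a among the genes co-regulated in all its rat datasets, Heroin-SA included. Its test differs from the one used here, and its methods describe more sequenced rats per group. Whether the subunit changes differ between injected and self-administered heroin was not tested.

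The experiments also differed in their control rats. Saline-Saline lay above Saline-SA in every library for Grin2a (2.74 times the mean) and Grin3a (1.74 times), and below it for Grin2c (0.797 times), in a comparison in which 28.3% of all genes did not overlap. Saline-Heroin lay above Heroin-SA in every library for Grin2a and Grin2b and below it for Grin2c, where 23.0% of genes did not overlap. By the methods, self-administering rats were housed singly on a reversed light cycle and injected rats in pairs on a normal one. Injected rats also went through a locomotor chamber before killing. Surgery, handling, housing, light cycle, the locomotor session, time of killing and sequencing cannot be told apart here, and no test was made.

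The balance between subunits was followed as ratios within a library, which do not depend on library size. The ratio of Grin2a to Grin2d was 0.428, 0.474, 0.747 and 0.606 in Saline-Saline. LPS-Saline rats had 2.35, 1.11, 1.08 and 1.79 and Saline-Heroin rats 2.06, 0.630, 2.45 and 1.47. It was 2.84, 3.52, 1.11 and 1.25 in LPS-Heroin. Grin2d thus exceeded Grin2a in all Saline-Saline rats, and Grin2a exceeded Grin2d in 11 of the 12 treated injected rats, the exception being replicate 2 of Saline-Heroin. Which gene exceeds another in FPKM depends on the gene models (4259 bases for Grin2a and 5256 for Grin2d). Differences of the log2 ratio between groups do not.

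On the log2 scale the Grin2a to Grin2d ratio exceeded that of Saline-Saline by 1.44 (SE 0.33) with LPS, by 1.42 (SE 0.47) with heroin and by 1.81 (SE 0.45) with both. The ranges were separate in LPS-Saline and LPS-Heroin and overlapped in Saline-Heroin. In self-administering rats the ratio was 0.475, 0.169, 0.321 and 0.165 for Saline-SA and 0.258, 0.952, 0.269 and 0.935 for Heroin-SA. Those groups overlapped, with a difference of 0.96 (SE 0.65), and Grin2d exceeded Grin2a in all 8 rats. In the order of group means, LPS-Saline and the next group below it, Heroin-SA, were the only neighbours whose ranges were separate.

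The ratio of Grin2a to Grin2b, which is widely used as an index of receptor maturation, moved much less. Saline-Saline rats averaged 1.34 ± 0.317, LPS-Saline rats 1.70 ± 0.215, Saline-Heroin rats 1.71 ± 0.264 and LPS-Heroin rats 1.62 ± 0.180 (SD, n = 4 each). The differences from Saline-Saline were 0.36 (SE 0.20), 0.37 (SE 0.22) and 0.29 (SE 0.20) on the log2 scale, and every pair of compared groups overlapped. In Saline-SA it was 1.18, 0.630, 0.744 and 0.572, and in Heroin-SA 0.711, 1.34, 0.801 and 1.48. In FPKM, Grin2b thus exceeded Grin2a in 3 Saline-SA rats and 2 Heroin-SA rats, but in only 1 of the 16 injected rats, replicate 1 of Saline-Saline. These counts of rats again depend on the gene models (4259 bases for Grin2a and 5261 for Grin2b).

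**Figure D3:**
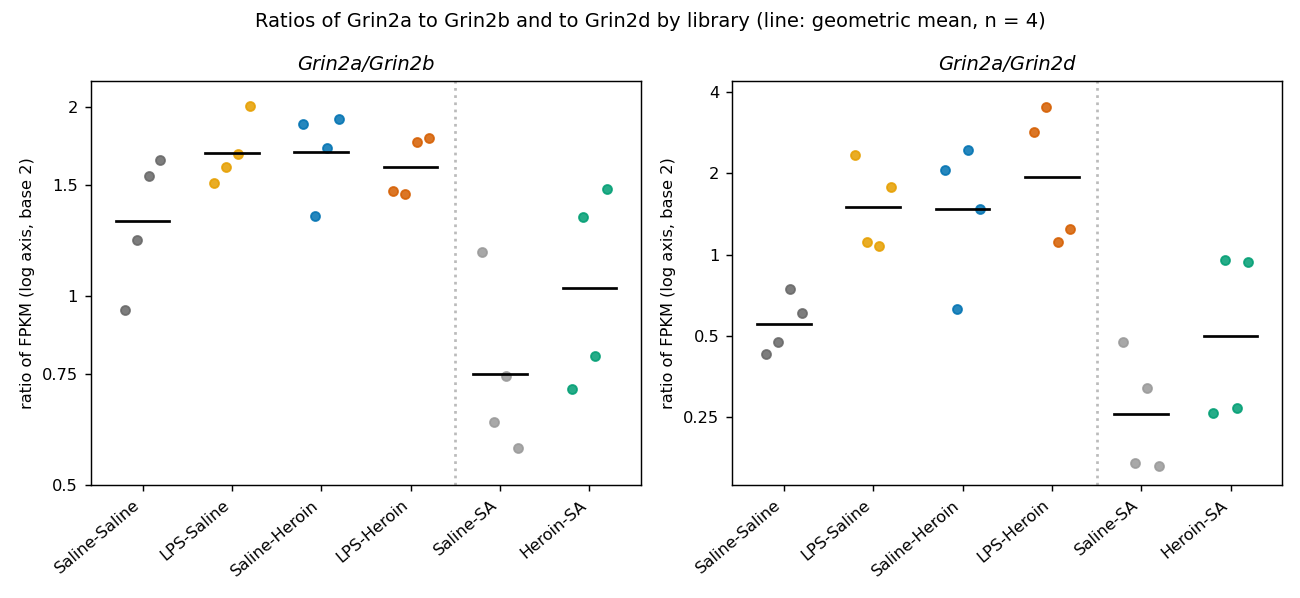
Ratio of Grin2a to Grin2b (left) and of Grin2a to Grin2d (right) in FPKM in each library, on logarithmic axes, with the geometric mean of each group as a line and a dotted line between the experiments. The Grin2a to Grin2d ratio lay between 0.428 and 0.747 in Saline-Saline and at 1.08 or above in every LPS-Saline and LPS-Heroin library, whereas the Grin2a to Grin2b ratio overlapped between all compared groups.

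As shares of the summed FPKM of the 4 Grin2 genes, Grin2a took 10.7% ± 3.18 in Saline-Saline, and 17.9% ± 1.44 after LPS, 16.9% ± 2.35 after heroin and 16.7% ± 3.40 after both. Grin2d took 18.8% ± 1.02, 12.8% ± 5.09, 12.4% ± 6.29 and 8.98% ± 3.28 in the same order. Grin2b took 7.94% ± 1.35 in Saline-Saline and 9.88% to 10.6% in the treated groups (means, SD, n = 4). In Heroin-SA, Grin2c alone made up 78.9% ± 3.40, Grin2a 5.73% ± 3.12 and Grin2d 10.3% ± 2.08.

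Rats of one group varied together in some members. After group means were removed, Grin2a and Grin2b were correlated over the 24 libraries, with Pearson's r of 0.74 (permutation p = 0.00107, adjusted p = 0.0160 over 15 pairs) and Spearman's rho of 0.72 (permutation p = 0.00500, adjusted p = 0.0750). Without the 2 libraries farthest from the median of Grin2a, r was 0.68. Within the 16 injected rats r was 0.82, and within the 8 self-administering rats it was 0.71. Grin2c and Grin2d had an r of -0.48 (permutation p = 0.0704, adjusted p = 0.269) and a rho of -0.51 (permutation p = 0.0366, adjusted p = 0.199), but r was -0.83 in injected rats and 0.44 in self-administering rats. The remaining 13 pairs had r between -0.36 (Grin2a and Grin2d) and 0.42 (Grin2a and Grin3a), and no adjusted p under 0.05.

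Grin2a and Grin2b are long genes, spanning 190 and 439 kb, while Grin1, Grin2c and Grin2d span 27.8, 18.0 and 36.4 kb and Grin3a 144 kb. The level of long genes was therefore set beside them, as the mean log2(FPKM + 0.1) of 1764 protein-coding genes spanning at least 100 kb less that of 9455 genes under 40 kb. Saline-Saline rats had a difference of -0.40 ± 0.04, LPS-Saline rats -0.31 ± 0.07, Saline-Heroin rats -0.33 ± 0.03, LPS-Heroin rats -0.33 ± 0.09, Saline-SA rats -0.65 ± 0.03 and Heroin-SA rats -0.53 ± 0.11 (SD, n = 4 each). The long-gene difference was narrowly higher in every Saline-Heroin rat (lowest -0.360) than in any Saline-Saline rat (highest -0.362). LPS-Saline and LPS-Heroin overlapped Saline-Saline. It moved with Grin2a between rats of one group, with r of 0.79 (permutation p = 0.000760, adjusted p = 0.0198 over 84 relations) and rho of 0.74 (permutation p = 0.00211, adjusted p = 0.0457). Without the 2 farthest libraries r was 0.70, and it was 0.66 in injected and 0.92 in self-administering rats. For Grin2b r was 0.73 (permutation p = 0.000800, adjusted p = 0.0198) and rho 0.63 (permutation p = 0.00517, adjusted p = 0.0724), and r was 0.61 without the 2 farthest libraries. The same difference taken by the length of the gene model, at least 5000 bases less under 2000, had r of 0.76 with Grin2b (permutation p = 0.000960, adjusted p = 0.0198) and rho of 0.75 (permutation p = 0.00268, adjusted p = 0.0457), with r of 0.74 without the 2 farthest libraries. With Grin2a it had r of 0.66 (permutation p = 0.00344, adjusted p = 0.0413) and rho of 0.66 (permutation p = 0.0102, adjusted p = 0.107), with r of 0.71 without the 2 farthest libraries. The part of either difference in the higher Grin2a of the treated groups was not tested.

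Grin2d moved instead with marker genes of striatal interneurons, the mean log2 level of 8 markers including Pvalb, Sst, Lhx6 and Chat. Within groups r was 0.72 (permutation p = 0.00118, adjusted p = 0.0198 over the same 84 relations) and rho 0.69 (permutation p = 0.00125, adjusted p = 0.0457). Without the 2 farthest libraries r was 0.69, and it was 0.74 in injected and 0.71 in self-administering rats. With septum and ventral forebrain markers r was 0.61 (permutation p = 0.00220, adjusted p = 0.0308) and rho 0.56 (permutation p = 0.00673, adjusted p = 0.0808), and r was 0.55 without the 2 farthest libraries. The interneuron level averaged 4.10 in Saline-Saline, 4.06 after LPS, 3.90 after heroin and 3.91 after both, with overlapping ranges. The summed FPKM of the interneuron list went the other way. It averaged 510 in Saline-Saline, 594 after LPS, 525 after heroin and 575 after both, also with overlapping ranges. The part of interneurons in the lower Grin2d was not tested.

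Grin3a moved with markers of the ventricle lining. With 4 ependyma markers r was 0.58 (permutation p = 0.00114, adjusted p = 0.0198) and rho 0.65 (permutation p = 0.00125, adjusted p = 0.0457), and r was 0.65 without the 2 farthest libraries. With the 2 choroid plexus markers averaging above 0.5 FPKM, r was 0.48 (permutation p = 0.00433, adjusted p = 0.0455) and rho 0.61 (permutation p = 0.00272, adjusted p = 0.0457), and r was 0.42 without the 2 farthest libraries. The other relations of the 84 had no adjusted p under 0.05 by either measure.

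**Figure D4:**
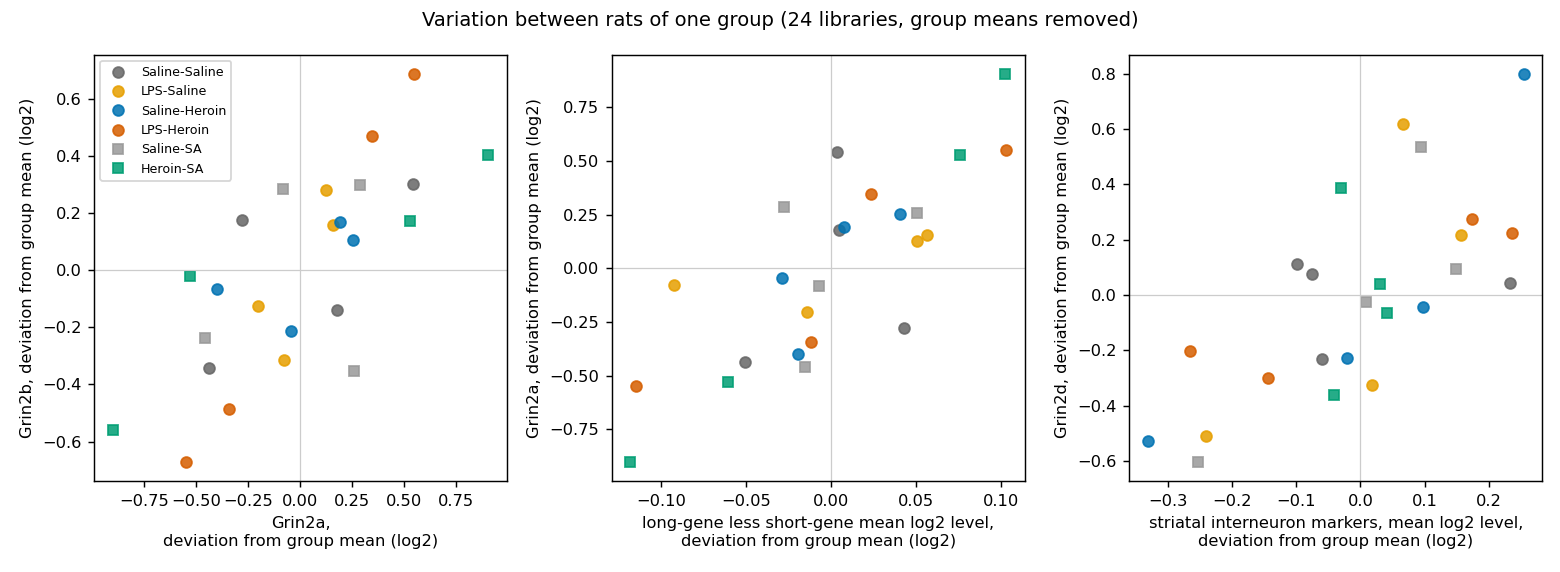
Deviations from the group mean (log2) in the 24 libraries for Grin2b against Grin2a (left), Grin2a against the long-gene less short-gene level (middle) and Grin2d against striatal interneuron markers (right), with circles for injected and squares for self-administering rats. The points rise together in each panel, with r of 0.74, 0.79 and 0.72.

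The genes most like each member were taken by Pearson's r of log2(FPKM + 0.1) over the 24 libraries, among 11909 genes with a mean of at least 1 FPKM. The libraries share the difference between the 2 experiments, so these values are a description. For Grin2a they were Myt1l, Add2, Stxbp5l, Kcnma1 and Sbno1, with r from 0.96 to 0.97. With group means removed they were Stxbp5l, Ino80d, Atxn1, Sbno1 and Add2, with r from 0.89 to 0.92. Myt1l is a neuronal transcription factor, Add2 a component of the membrane skeleton and Kcnma1 the large-conductance potassium channel.

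For Grin2b the genes most alike included Grin2a (r 0.90), Pclo, which encodes a presynaptic scaffold, Rbms1 and Ranbp2. With group means removed they were Lcor, Ago3, Pclo, Zbtb20 and Wdfy3, with r from 0.84 to 0.85. For Grin2d they were Gpx3, Mapk12, Agt, Sparc and Ebf4 (r from 0.87 to 0.89), and within groups Kcnj16, Ache, Mapk12, Akap12 and Podxl2 (r from 0.87 to 0.90). Ache encodes acetylcholinesterase and Kcnj16 an inwardly rectifying potassium channel. The lists for Grin2a and Grin2d had no gene in common.

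Partners of the receptor were described from 4 lists with 38 genes, of which 37 were tested (Dao, the D-serine degrading oxidase, was below 0.5 FPKM). They cover co-agonist supply, scaffolds and trafficking, kinases and phosphatases, and signalling downstream of the channel. In LPS-Saline against Saline-Saline 0 of 37 were DEGs in either direction, with 2.37% of all genes called, and their median log2 fold change was 0.10 against 0.01 over all genes. In Saline-Heroin 3 of 37 were DEGs, of which 2 rose and 1 fell, with 3.07% of all genes called, and the median was 0.16. Camk2a, the alpha subunit of calcium/calmodulin kinase II that binds the receptor, rose by 0.41 (SE 0.11), from 247 ± 17.3 to 331 ± 50.2 FPKM. It was at 288 ± 23.8 FPKM in LPS-Saline and 318 ± 32.6 FPKM in LPS-Heroin, log2 fold changes of 0.22 (SE 0.08) and 0.36 (SE 0.09) that were short of the fold limit. Rasgrf2, a calcium-responsive activator of Ras, rose by 0.61 (SE 0.24), from 3.76 ± 1.34 to 5.64 ± 1.12 FPKM.

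The partner that fell was Slc6a9, the glycine transporter GlyT1, which clears the co-agonist from the synapse. It went from 52.8 ± 6.29 FPKM in Saline-Saline to 38.9 ± 7.67 in Saline-Heroin and 37.6 ± 2.58 in LPS-Heroin, log2 fold changes of -0.45 (SE 0.15) and -0.48 (SE 0.09). LPS-Saline rats had 40.9 ± 3.14 FPKM, a log2 fold change of -0.36 (SE 0.10) that was just short of the fold limit. In LPS-Heroin 3 of 37 were DEGs, with 5.43% of all genes called and a median of 0.13. Beside Slc6a9 these were Nsmf, which encodes a messenger from synapse to nucleus and rose by 0.45 (SE 0.10), and Kalrn, an exchange factor of dendritic spines, which rose by 0.43 (SE 0.10). Kalrn had 0.23 (SE 0.07) in LPS-Saline and 0.33 (SE 0.12) in Saline-Heroin, and Nsmf had 0.12 (SE 0.15) and 0.23 (SE 0.15). Between LPS-Heroin and LPS-Saline 0 of 37 were DEGs, with 2.29% of all genes called. Between LPS-Heroin and Saline-Heroin 2 of 37 were, Rasgrf2 (-0.56) and the scaffold gene Lin7a (-0.62), both lower, with 2.2% of all genes called. In the interaction 2 of 37 passed the limits, Rasgrf2 (-0.78) and Lin7c (-0.49), with 2.31% of all genes called.

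In Heroin-SA against Saline-SA 3 of the 37 partners rose and none fell, with 5.45% of all genes called. Rasgrf2 went from 1.20 ± 0.46 to 3.22 ± 1.15 FPKM (1.36 on the log2 scale, SE 0.31), Lin7a from 1.55 ± 0.62 to 2.53 ± 0.70 FPKM (0.71, SE 0.29) and Prkca, protein kinase C alpha, from 5.30 ± 0.51 to 7.85 ± 2.19 FPKM (0.52, SE 0.19). Grin1 and the scaffold genes Dlg1, Dlg2, Dlg3 and Dlg4, which hold the receptor at the synapse, were DEGs in none of the 6 comparisons or the interaction. The adjusted p-values of all partners named here were above 0.05 by limma.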

How the data were processed

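RNA of the NAc, core and shell together, was measured by RNA-seq of polyadenylated RNA in 24 libraries of 6 groups, with groups and replicate numbers from the labels. Per the submitters' processing notes, fastp, HISAT2 and featureCounts served for trimming, alignment to rn6 and counting. Tool versions and the use of strand in counting are not given in the sources used here. The authors deposited FPKM values. The NMDA receptor genes and all lists were chosen with earlier results of these data known.

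Multiplied by gene length, the FPKM rose in steps of 1 read in each library, so reads could be restored, and 100% of 781080 values came out whole within a tolerance of 0.05. The library sizes implied by the FPKM were 0.940 to 1.05 of the summed gene reads. Because the values are FPKM, the count test used by the study was replaced: log2(FPKM + 0.1) of the 8 libraries compared (16 for the interaction) was fitted with limma-trend (limma 3.58.1, R 4.3.3) over genes averaging 0.5 FPKM or more, with Benjamini-Hochberg adjustment over all genes tested. The script was tested on simulated data. Single members were also compared by two-sided exact permutation of the libraries. Correlations between libraries used deviations from group means with 100000 permutations within groups, two-sided. The levels of long genes and of marker lists were set beside the members after the data had been seen. Error is the SD over 4 libraries of separate rats, and low genes carry counting error on top. Ratios between members got no test.

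Named genes were all members and Grin3b, the partner genes passing the DEG limits (at most 4 per comparison by p), and the 5 genes most like Grin2a, Grin2b and Grin2d, apart from items that are not reported here. Alternatives were other pseudocounts, filters and scalings, a joint fit, robust moderation, the replicate number as a block, limma-voom on recovered reads, and the omission of each library.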

Additional observations from a re-analysis of the deposited data

How the results depend on the processing

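With 4 rats per group the smallest exact permutation p is 0.0286, and members with few reads, such as Grin2a and Grin2b in self-administering rats, carry the largest counting error. Grin2a in LPS-Saline and Grin2d in LPS-Heroin, both against Saline-Saline, were DEGs under every alternative run, and Grin2d in Saline-Heroin was one under every alternative other than 2 omissions. Grin2b in LPS-Saline lost its call at a pseudocount of 1 (0.36), without the filter on FPKM (0.46) and with all 6 groups in one fit (0.46). With all 6 groups in one fit, the DEGs among the members of Saline-Heroin against Saline-Saline went from 2 to 1. The cause was not tested.

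Replicate numbers were used as a block once. Rats with the same number did not deviate together (r at most 0.154, no comparison with all pairs above 0.1, and no comparison in which every library was closest to its own number), so they share only a number. With the block, the DEGs among the members of LPS-Heroin against Saline-Saline went from 2 to 1, Grin2a at 0.81 losing its call, and all genes called went from 822 to 901. The block changed no other call of a member.

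Omitting each library in turn gave 1 to 2 DEGs among the members for LPS-Saline, 0 to 2 for Saline-Heroin and 1 to 3 for LPS-Heroin, each against Saline-Saline, 0 to 1 for Heroin-SA against Saline-SA, 0 to 1 for the interaction, and 0 for the other comparisons. Changes of sign concerned members that were no DEGs. In LPS-Heroin against LPS-Saline Grin2a was at 0.0035 with a pseudocount of 1, 0.017 after quantile normalization, 0.016 with equal medians and 0.011 by limma-voom. In LPS-Heroin against Saline-Heroin Grin1 was at -0.0050 after quantile normalization and -0.0098 by limma-voom, and Grin3a at 0.0052 after quantile normalization. After quantile normalization the within-group r of Grin1 with Grin2a was 0.166, with Grin2b 0.266 and with Grin3a 0.0702.

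Sign changes on omission had these ranges of log2 fold change. In LPS-Saline against Saline-Saline Grin1 ran from -0.053 to 0.012 and Grin2c from -0.19 to 0.015. In Saline-Heroin against Saline-Saline Grin2c ran from -0.11 to 0.022 and Grin3a from -0.032 to 0.28, and in LPS-Heroin against Saline-Saline Grin3a ran from -0.11 to 0.28. In LPS-Heroin against LPS-Saline Grin2a ran from -0.19 to 0.18, Grin2b from -0.16 to 0.29, Grin3a from -0.24 to 0.15 and the Grin2a to Grin2b ratio from -0.13 to 0.0086. In LPS-Heroin against Saline-Heroin Grin1 ran from -0.021 to 0.040, Grin2a from -0.031 to 0.34, Grin2d from -0.41 to 0.033, Grin3a from -0.20 to 0.19 and the Grin2a to Grin2d ratio from -0.016 to 0.66. In Heroin-SA against Saline-SA Grin1 ran from -0.043 to 0.014, Grin2b from -0.024 to 0.30 and Grin3a from -0.13 to 0.27. In the interaction Grin1 ran from -0.0056 to 0.060 and Grin3a from -0.33 to 0.060.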
